A study of Rattus norvegicus with 134 samples.

Results

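The miRNA of 12 heated rat hearts, 6 taken 48 h and 6 taken 24 h after heat stress, were compared between these time points and set beside the same interval in 12 time-matched control hearts, 6 at 48 h and 6 at 24 h. The hearts were chosen by the tissue, treatment and time in their labels, and they are 12 of the 77 libraries analysed here, of which 35 are from heart. F344 rats of the heat arm spent 24 h in an incubator at room temperature, were then heated at 37.0 °C until the core temperature reached 41.8 °C (Tc,Max), and recovered in a cage at 22.0 °C until 48 h or 24 h. The labels state that control rats were kept out of the incubator, whereas the study's methods place them in an incubator at room temperature. Each library is 1 rat, and the ages are not given in the sources used here. The labels do not mark which rats were injured, so that all heated rats of a time point form 1 group here. The comparison asks which miRNA differ between the second and the first day of recovery, and whether control hearts differ likewise.

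A miRNA is cut from a hairpin and guides a silencing complex to messenger RNA, mainly through its seed, the bases 2 to 8 of the mature strand. In the heart, miR-1, miR-133, miR-208 and miR-499 are made by the muscle cells, and miR-208 and miR-499 sit in introns of myosin genes. Other miRNA mark the cells that pass through or enter the tissue: miR-451 is a product of red cell precursors, and miR-142 and miR-150 are made by white blood cells. miR-21, miR-146b, miR-221 and miR-222 are known to be raised in injured or inflamed tissue, the first of these mainly in fibroblasts of the heart.

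The sequences below are those of the miRNA on which the comparison turns, with the seed in capitals. They are RefSeq sequences on the GRCr8 build, and 108 of the 185 names in the table matched a mature entry. The blood cell miRNA with an entry were these.
miR-451-5p: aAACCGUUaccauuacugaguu
miR-142-3p: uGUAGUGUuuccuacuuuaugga
Both lie on chromosome 10, miR-451-5p at chr10:63459585-63459606 and miR-142-3p at chr10:73055155-73055177, each on the plus strand, and miR-21-5p below lies on the minus strand at chr10:71902653-71902674. The miRNA of injury and inflammation were these, and miR-221-3p and miR-222-3p share a seed and lie near each other on chromosome X.
miR-21-5p: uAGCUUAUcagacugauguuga
miR-21-3p: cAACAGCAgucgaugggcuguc
miR-146b-5p: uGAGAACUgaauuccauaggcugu
miR-221-3p: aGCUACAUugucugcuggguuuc
miR-222-3p: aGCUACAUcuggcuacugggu
The muscle miRNA served to check the tissue. miR-133a-3p and miR-133b-3p share a seed.
miR-1-3p: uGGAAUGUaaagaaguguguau
miR-133a-3p: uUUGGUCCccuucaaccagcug
miR-133b-3p: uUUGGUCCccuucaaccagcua
miR-208a-3p: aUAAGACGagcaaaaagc
miR-499-5p: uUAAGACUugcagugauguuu
The 5p arms of the miR-30 family printed here share 1 seed. The miR-30c-5p sequence is encoded both on chromosome 5 and on chromosome 9, so that names ending in -1 and -2 can share reads.
miR-30a-5p: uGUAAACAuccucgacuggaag
miR-30c-5p: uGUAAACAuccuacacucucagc
miR-30e-5p: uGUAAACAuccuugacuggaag

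The deposited values are log2(CPM + 1) for each name, where CPM is the reads of a name scaled to a common library total, and levels below are on this scale unless CPM is named. Differences are 48 h minus 24 h on the same scale, which understates differences of names with few reads. The total reads recovered from the smallest step of the values were 126279 to 587245 in heated hearts at 48 h, 442642 to 879240 in heated hearts at 24 h, 408369 to 838657 in control hearts at 48 h and 323527 to 708744 in control hearts at 24 h. The shallowest libraries were those of rats 308 and 307, both heated and taken at 48 h, with 126279 and 194846 reads, for which 3 reads correspond to values of 4.63 and 4.04. The table lists miR-21 both without an arm and by arm, and the first is not the sum of the others. Names with nearly equal values may share reads: miR-219a-2 and miR-219b lay within 0.05 of each other in all 24 libraries, miR-133a and miR-133c within 0.06, and miR-30c-1 and miR-30c-2 within 0.09.

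The library labelled heart of rat 307, heated, 48 h, goes against its label. Each of the 9 muscle names was lower there than in any of the other 23 libraries, and 6 of the 9 were at or below the value of 3 reads. Among the 9, miR-133a and miR-133c had nearly equal values and may count the same reads. The mature miR-133c and miR-133a-3p lie on opposite strands of chromosome 18 and overlap by 21 bases. In control hearts at 24 h the means of miR-133a and miR-133c were 16.4 and 16.46. This pair is thus a large part of the sum, which may count its reads more than once. The summed level of the 9 names was 559 CPM in the library of rat 307. It was 51500 to 212000 CPM in the other heated hearts at 48 h, 143000 to 207000 CPM in heated hearts at 24 h, 157000 to 228000 CPM in control hearts at 48 h and 172000 to 214000 CPM in control hearts at 24 h. In heated hearts at 48 h, miR-133a-3p was at 5.84 in the library of rat 307 and at 11.52 to 13.35 in the other 5, and miR-1-3p was at 2.62 there and at 7.69 to 9.99 in the other 5. Of the 13 epithelial names, 8 were higher there than in any of the other 23 libraries and 5 were not. The 13 names summed to 17000 CPM in the library of rat 307, to 137 to 334 CPM in the other heated hearts at 48 h, to 111 to 601 CPM in heated hearts at 24 h, to 122 to 278 CPM in control hearts at 48 h and to at most 535 CPM in control hearts at 24 h. miR-375-3p, a miRNA of endocrine and epithelial cells, was at 12.82 in the library of rat 307 and at no more than 5.97 in the other 23. miR-34c-5p, abundant in ciliated cells, was at 12.55 there, and miR-429 of the miR-200 family at 11.79. The 7 names of the kidney list summed to 111000 CPM in the library of rat 307, to 10700 to 39000 CPM in the other heated hearts at 48 h, to 13400 to 26600 CPM in heated hearts at 24 h, to 9850 to 31200 CPM in control hearts at 48 h and to 13700 to 29200 CPM in control hearts at 24 h. Within this list miR-10a-5p was at 16.61 in the library of rat 307 and at no more than 14.80 in the other 23, miR-192-5p at 8.89 was inside the range of the others, and miR-194-5p was at 4.04, the value of 3 reads. miR-122-5p of liver was at 2.62. Across the 163 names tested, the correlation of this library with each of the other 23 was 0.461 to 0.59, with a median of 0.51. For the other heated libraries, the median correlation of each with the rest was 0.892 to 0.98. These are descriptions across names of libraries with unequal depth. Which tissue this RNA came from was not tested, and the comparisons below are given with and without this library.

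**Figure D1:**
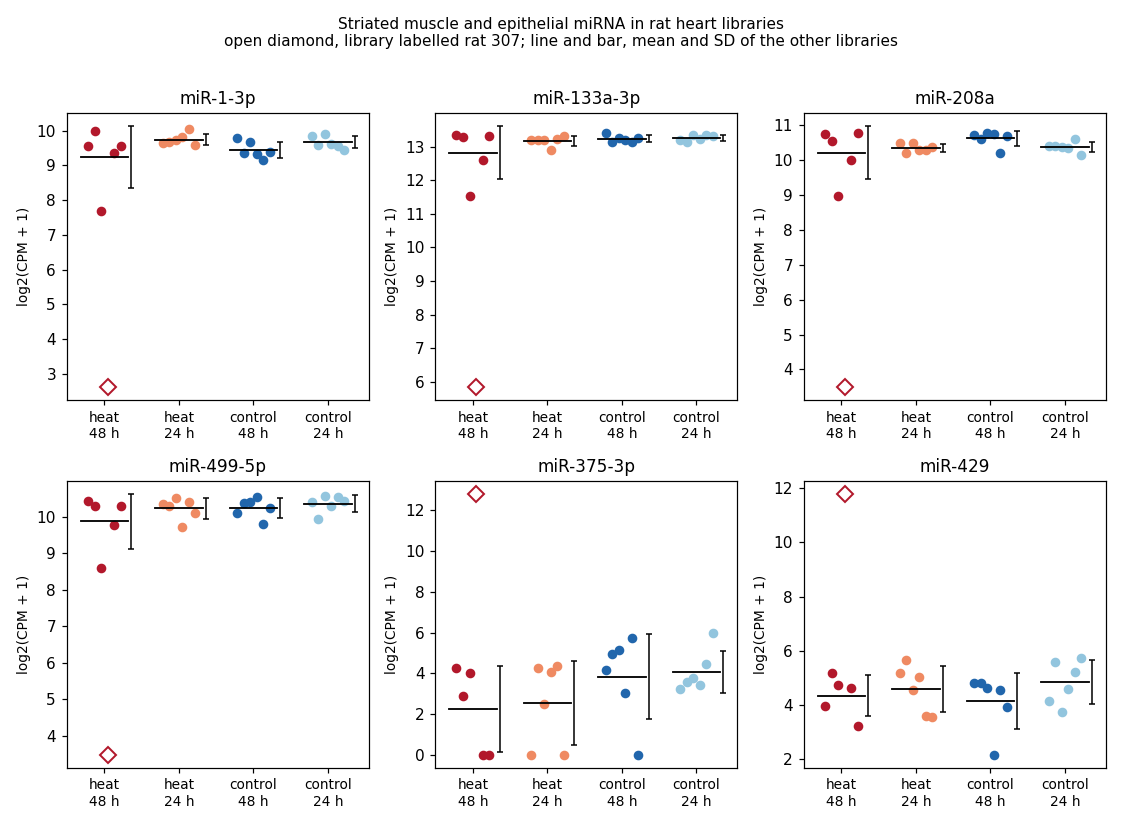
Values of 6 miRNA (log2(CPM + 1), vertical axes) in hearts of the 4 groups, 1 point for each library, with the mean and SD of the libraries other than rat 307. The open diamond of rat 307 lies far below the others for the 4 muscle miRNA (miR-1-3p at 2.62, miR-133a-3p at 5.84) and far above them for miR-375-3p (12.82) and miR-429 (11.79).

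No name passed the test between 48 h and 24 h in heated hearts, with or without rat 307. The test was limma's treat, which asks for more than a small set fold change, fitted across all heart libraries with Benjamini-Hochberg adjustment over 163 names. With all libraries, 0 of 163 names were called higher and 0 lower at 48 h (0% each way), and the smallest adjusted p from limma was 0.195. At an unadjusted limma p below 0.05 there were 17 names, 9 higher (5.52% of names) and 8 lower (4.91%). Names that may share reads, such as miR-219a-2 and miR-219b, count separately in these numbers. Without rat 307 the counts of calls were again 0 and 0, the smallest adjusted p from limma was 0.557, and the unadjusted threshold was passed by 3 names higher (1.84%) and 1 name lower (0.613%), all 4 of them among the 17. In control hearts, 0 names were called and 2 passed the unadjusted threshold, both lower at 48 h (1.23%). limma's voom on the recovered reads called 0 names in these 3 comparisons, with 17, 4 and 2 at an unadjusted p below 0.05. Exact permutation tests of each name called 0 after adjustment, with 30, 26 and 23 below an unadjusted p of 0.05.

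The median difference over the 163 names was below 0 in each comparison. It was -0.22 in heated hearts, -0.15 in heated hearts without rat 307 and -0.17 in control hearts. Under median-ratio scaling of the libraries these medians were -0.04, -0.02 and 0.00, and under trimmed-mean scaling -0.08, -0.05 and 0.01. Of the 163 names, 101 had negative differences in heated hearts, 114 in heated hearts without rat 307 and 123 in control hearts. Differences of single names, and the signs counted within lists, are read against these shifts and counts.

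miR-451 had the largest positive difference of the 163 names in heated hearts, with and without rat 307. In heated hearts at 48 h it was at 6.34, 7.55, 7.43, 7.85 and 6.63 in rats 304, 305, 306, 308 and 309 and at 6.19 in the library of rat 307, against a range of 3.79 to 6.27 and a median of 4.82 in heated hearts at 24 h. Without rat 307 the heated groups did not overlap, and with it the library of rat 307 lay just inside the upper end of the 24 h range. This was the 1 name of 163 whose 48 h values all lay above the 24 h values (0.613% of names without rat 307, and 0% with all libraries). The difference was 2.16 ± 0.63 (SE, 5 against 6 libraries) without rat 307, with an adjusted p of 0.557 from limma and 0.141 from the exact permutation test. With all libraries it was 1.99 ± 0.60 (6 against 6), with adjusted p of 0.266 from limma and 0.128 from the exact permutation test. Control hearts had 5.41 to 6.94 at 48 h (median 6.72) and 4.38 to 6.90 at 24 h (median 6.03), with a difference of 0.57 ± 0.60. The low values of miR-451 were thus those of heated hearts at 24 h, 4 of which were below 5, against 1 of the 12 control hearts. These values rest on 14 to 101 reads in heated hearts at 48 h, 8 to 67 in heated hearts at 24 h, 17 to 82 in control hearts at 48 h and 14 to 65 in control hearts at 24 h. miR-451 is the only member of the red cell list in the table, and the part of blood left in the tissue was not tested.

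miR-142-3p, a white blood cell miRNA, was higher than the mean of heated hearts at 24 h in each of the 6 heated hearts at 48 h. At 48 h it was at 5.84, 5.79, 7.41, 7.80 and 6.63 in rats 304, 305, 306, 308 and 309, and at 9.13 in the library of rat 307. At 24 h the heated hearts were at 4.25 to 6.22 with a median of 5.60. The values of rats 306, 308, 309 and 307 were above this range, and those of rats 304 and 305 were inside it. The difference was 1.22 ± 0.35 (SE, 5 against 6) without rat 307 and 1.62 ± 0.40 (6 against 6) with it, with adjusted p of 0.653 and 0.195 from limma. With rat 307 kept, miR-142-3p was called when rat 304 was left out (1.88, adjusted p of 0.0222 from limma) or rat 305 was (1.89, adjusted p of 0.0403). Control hearts were at 5.98 to 6.62 at 48 h and at 5.75 to 6.85 at 24 h, a difference of 0.03 ± 0.40. The other arm of the same hairpin, miR-142-5p, was at 10.38 and 10.20 in rats 306 and 308 and at 6.94, 7.10 and 7.91 in rats 304, 305 and 309 at 48 h, against 7.56 to 9.04 in heated hearts at 24 h. In the library of rat 307 miR-142-5p was at 5.84. Its difference was 0.19 ± 0.63 without rat 307 and -0.25 ± 0.65 with it. The name without an arm, miR-142, differed by 0.38 ± 0.39 with all libraries, with an adjusted p of 0.828 from limma. The values of miR-142-3p rest on 26 to 109 reads in heated hearts at 48 h and on 8 to 54 in heated hearts at 24 h.

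miR-150-5p, made by mature lymphocytes, was lower at 48 h in heated and in control hearts. Heated hearts at 48 h had 9.51, 9.80, 9.47, 9.36 and 9.90 in rats 304, 305, 306, 308 and 309 and 7.12 in the library of rat 307, against 10.55 to 11.15 in heated hearts at 24 h (median 10.82). These groups did not overlap, with or without rat 307, and this was the 1 name of 163 (0.613%) whose values at 48 h all lay below those at 24 h. Control hearts had 8.30 to 10.31 at 48 h (median 9.86) and 10.18 to 12.05 at 24 h (median 10.55), and 5 of the 6 values at 48 h lay below each of those at 24 h. No name of 163 was free of overlap in the controls (0% higher and 0% lower). The difference was -1.23 ± 0.39 (SE, 5 against 6) in heated hearts without rat 307, -1.65 ± 0.44 (6 against 6) with it and -1.21 ± 0.44 (6 against 6) in control hearts. In limma the adjusted p values were 0.701, 0.195 and 0.998. The exact permutation test gave an unadjusted p of 0.00216 for heated hearts with and without rat 307, the smallest it can give at these group sizes, and 0.101 and 0.141 after adjustment. The heated minus control difference of these changes was -0.02 ± 0.54 without rat 307, with a 95% interval of -1.12 to 1.07. A fit of the heated groups alone, without rat 307, called miR-150-5p with an adjusted p of 0.00705 from limma, and this was the only call it made.

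**Figure D2:**
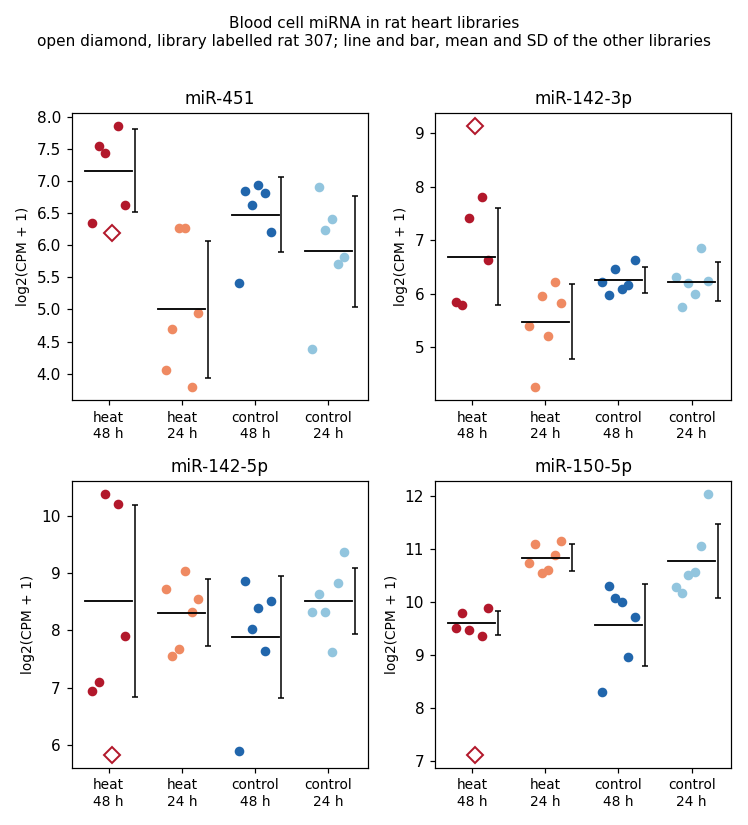
Values of the blood cell miRNA miR-451, miR-142-3p, miR-142-5p and miR-150-5p (log2(CPM + 1), vertical axes) in the 4 groups, 1 point for each library, with the mean and SD of the libraries other than rat 307. miR-451 is lowest in heated hearts at 24 h (3.79 to 6.27), and miR-150-5p is lower at 48 h than at 24 h both in heated hearts (9.36 to 9.90 without rat 307, against 10.55 to 11.15) and in control hearts.

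Of the 4 white cell names in the table, all tested, 0 were called. Their median difference was 0.25 in heated hearts without rat 307, 0.07 with it and -0.50 in control hearts, beside medians of -0.15, -0.22 and -0.17 over all names. The summed level of this list was 1100 to 3580 CPM in heated hearts at 48 h without rat 307, 2100 to 3120 CPM in heated hearts at 24 h, 627 to 2280 CPM in control hearts at 48 h and 2070 to 5660 CPM in control hearts at 24 h, and it was 1410 CPM in the library of rat 307. In bulk hearts, fewer cells of a type and less of a miRNA in each cell cannot be told apart.

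The miRNA of injury and inflammation were high in some hearts at 48 h and at the level of the 24 h hearts in others. miR-21, which targets inhibitors of growth signalling, was at 15.12 and 15.26 in rats 306 and 308, at 12.54 in rat 305, and at 11.01 and 11.50 in rats 304 and 309, all heated and taken at 48 h. The library of rat 307 had 13.62. Heated hearts at 24 h had 11.05 to 12.32 with a median of 11.76. Rats 306, 308, 305 and 307 were above that range, rat 304 was just below it, and rat 309 was inside it. Control hearts were at 10.84 to 11.48 at 48 h and at 11.09 to 11.74 at 24 h. The difference in heated hearts was 1.33 ± 0.46 (SE, 5 against 6) without rat 307 and 1.42 ± 0.44 (6 against 6) with it, with adjusted p of 0.764 and 0.327 from limma and 0.553 and 0.394 from the exact permutation test. With rat 307 kept and rat 304 left out, miR-21 was called, at 1.86 with an adjusted p of 0.0222 from limma. In control hearts the difference was -0.23 ± 0.44.

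The spread of miR-21 between rats was wide at 48 h, with an SD of 1.80 among the 6 heated hearts at 48 h, 0.51 among heated hearts at 24 h, and 0.26 among control hearts at each time. Both arms of the hairpin had their highest values in the same rats, 306 and 308. miR-21-5p was at 13.95 and 13.79 in rats 306 and 308, and at 11.46 to 12.26 in rats 304, 305 and 309, against 11.68 to 12.40 in heated hearts at 24 h. miR-21-3p, the arm that is usually discarded, was at 9.09 and 8.87 in rats 306 and 308, at 6.29 in rat 305, and at 3.34 and 5.04 in rats 304 and 309, against 3.87 to 6.62 at 24 h, and it was at 4.43 in the library of rat 307. The values of miR-21-3p rest on 4 to 320 reads in heated hearts at 48 h and on 12 to 57 in heated hearts at 24 h. Its fewest reads at 48 h were 5 in rat 304 and 4 in the library of rat 307. The differences without rat 307 were 0.68 ± 0.29 for miR-21-5p and 1.27 ± 0.73 for miR-21-3p, with adjusted p of 0.999 each from limma.

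A further 3 members of the list were high in the same 2 hearts. miR-146b-5p, induced in inflammatory signalling and a brake on it, was at 11.94 and 10.87 in rats 306 and 308, at 10.12 in rat 305, and at 7.97 and 8.47 in rats 304 and 309, against 8.01 to 9.69 in heated hearts at 24 h. miR-222 was at 9.76 and 8.99 in rats 306 and 308 and at 6.13 to 7.08 in rats 304, 305 and 309, against 6.09 to 7.49 at 24 h. miR-221-3p, which has the same seed as miR-222-3p, was at 9.61 and 9.36 in rats 306 and 308 and at 6.94 to 7.80 in rats 304, 305 and 309, against 6.99 to 7.90 at 24 h. In the library of rat 307 miR-146b-5p was at 10.19, miR-222 at 8.32 and miR-221-3p at 10.27. Without rat 307 the differences were 1.02 ± 0.43 for miR-146b-5p and 0.69 ± 0.33 for miR-221-3p, and the 95% interval of miR-222 was 0.09 to 1.90, with adjusted p of 0.999 each from limma. With all libraries the differences were 1.07 ± 0.41 for miR-146b-5p, 1.03 ± 0.37 for miR-221-3p and 1.10 ± 0.43 for miR-222, with adjusted p of 0.384, 0.381 and 0.384 from limma in this order. miR-146a-5p, of the same family as miR-146b-5p, was not high in these hearts, at 7.30 to 8.16 in heated hearts at 48 h without rat 307 and 7.51 to 8.85 at 24 h.

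**Figure D3:**
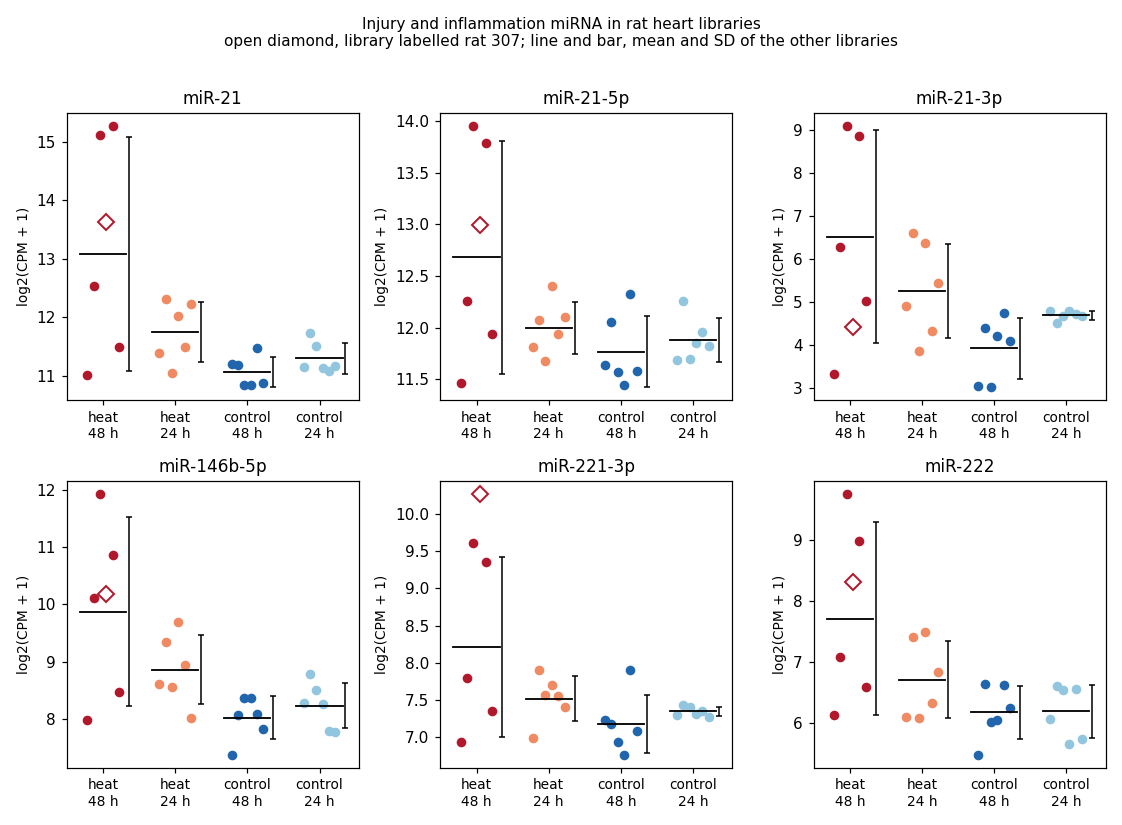
Values of 6 miRNA of injury and inflammation (log2(CPM + 1), vertical axes) in the 4 groups, 1 point for each library, with the mean and SD of the libraries other than rat 307. Rats 306 and 308, heated and taken at 48 h, lie at the top for miR-21 (15.12 and 15.26), miR-21-3p (9.09 and 8.87) and miR-222 (9.76 and 8.99), while rats 304 and 309 lie near the hearts at 24 h.

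Of the 8 names of this list, 0 were called in heated hearts. Without rat 307, 6 had positive differences and 2 negative ones, and 1 of the 8 passed an unadjusted limma p of 0.05. Their median difference was 0.84 without rat 307 and 0.98 with it, beside -0.15 and -0.22 over all names, and it stayed above 0 under median-ratio scaling (0.98 and 1.15) and trimmed-mean scaling (0.94 and 1.11). Leaving out rat 306 as well as rat 307 gave 0.43, and leaving out rat 308 as well as rat 307 gave 0.54, and array weights gave 0.21 without rat 307 and 0.24 with it. In control hearts all 8 differences were negative, with a median of -0.19, but 5 of 8 were negative under either scaling, with a median of -0.02. The summed level was 5600 to 58100 CPM in heated hearts at 48 h without rat 307 (median 12900), 6500 to 11600 CPM in heated hearts at 24 h (median 9150), 5520 to 8960 CPM in control hearts at 48 h and 6510 to 9480 CPM in control hearts at 24 h.

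Rat 306 also differed from the other hearts in its muscle miRNA. Its summed level of the 9 names was the 51500 CPM given above, and 8 of the 9 names were lower in it than in any other library but that of rat 307. In rat 306 miR-1-3p was at 7.69, miR-133a-3p at 11.52, miR-208a at 8.97 and miR-499-5p at 8.61. The other 4 heated hearts at 48 h, rats 304, 305, 308 and 309, had 9.36 to 9.99 of miR-1-3p, 12.59 to 13.35 of miR-133a-3p, 10.01 to 10.78 of miR-208a and 9.78 to 10.42 of miR-499-5p. Heated hearts at 24 h had 9.58 to 10.04, 12.89 to 13.31, 10.22 to 10.50 and 9.72 to 10.50 of these names. In rat 306 the smooth muscle miRNA miR-143-3p was also high, at 18.41, while the other heated hearts at 48 h without rat 307 had 16.50 to 16.75, heated hearts at 24 h 16.32 to 17.19, control hearts at 48 h 16.34 to 17.40 and control hearts at 24 h 16.17 to 17.35. The library of rat 307 had 17.66. The part of these levels in the other values of rat 306 was not tested.

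No muscle name passed the test. With all libraries the differences were -1.62 ± 0.66 for miR-1-3p, -1.52 ± 0.68 for miR-133a-3p, -1.27 ± 0.66 for miR-208a and -1.42 ± 0.65 for miR-499-5p, with adjusted p of 0.381 to 0.515 from limma. Without rat 307 the same differences were -0.51 ± 0.26, -0.36 ± 0.23, -0.15 ± 0.22 and -0.35 ± 0.29, each with an adjusted p of 0.999 from limma. All 9 names had negative differences with rat 307, with a median of -1.52, and 8 of 9 without it, with a median of -0.35. Counts of this list take miR-133a and miR-133c, which may share reads, as separate names. Without rats 307 and 306 the median was 0.00, with 5 names above 0 and 4 below. With array weights the medians were -0.02 with rat 307 and 0.02 without it. In control hearts 5 of 9 were positive, with a median of 0.03, and 8 of 9 under either scaling. miR-208b, which sits in the slow myosin gene, had the 1 positive difference without rat 307, 0.33 ± 0.31, and was listed at 0 in the library of rat 307.

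Most names of the miR-30 family had negative differences in heated hearts, as did most of all names tested, and none passed the test. This family, which restrains genes of connective tissue and cell death in the heart, was singled out after its values were seen. miR-30c-1 was at 12.06, 12.24, 11.85, 12.82 and 12.33 in rats 304, 305, 306, 308 and 309 at 48 h and at 8.32 in the library of rat 307, against 12.65 to 13.56 in heated hearts at 24 h (median 13.18). Only rat 308 was inside the 24 h range, and the other 5 were below it. Control hearts had 10.86 to 12.99 at 48 h (median 12.50) and 12.57 to 13.79 at 24 h (median 12.85). The difference was -0.88 ± 0.37 (SE, 5 against 6) in heated hearts without rat 307, -1.54 ± 0.51 (6 against 6) with it and -0.76 ± 0.51 (6 against 6) in control hearts. Their adjusted p values from limma were 0.999, 0.327 and 0.998. miR-30c-2 had nearly the same values and may count the same reads.

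Of the 13 miR-30 names, 0 were called. Without rat 307 all 13 differences were negative, beside 114 of all 163 names, with a median of -0.33 beside -0.15 over all names. However, 10 of 13 were negative under median-ratio scaling (median -0.20) and 10 of 13 under trimmed-mean scaling (median -0.24). Leaving out rat 306 as well gave 10 of 13 negative and a median of -0.18, equal to that over all names. Control hearts had 10 of 13 negative and a median of -0.12 beside -0.17 over all names, but 6 of 13 negative and a median of 0.06 under either scaling. The 5 names with the most negative differences without rat 307 were miR-30c-1, miR-30c-2, miR-30b-5p, miR-30c-5p and miR-30e-3p, from -0.88 to -0.65. miR-30a-5p was at 14.06 to 14.91 in heated hearts at 48 h without rat 307 and 14.58 to 14.75 at 24 h, with a difference of -0.09 ± 0.11, and was at 16.03 in the library of rat 307. Of the arms of the miR-30e hairpin, miR-30e-5p had a difference of -0.30 ± 0.16 and miR-30e-3p of -0.65 ± 0.34 without rat 307.

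**Figure D4:**
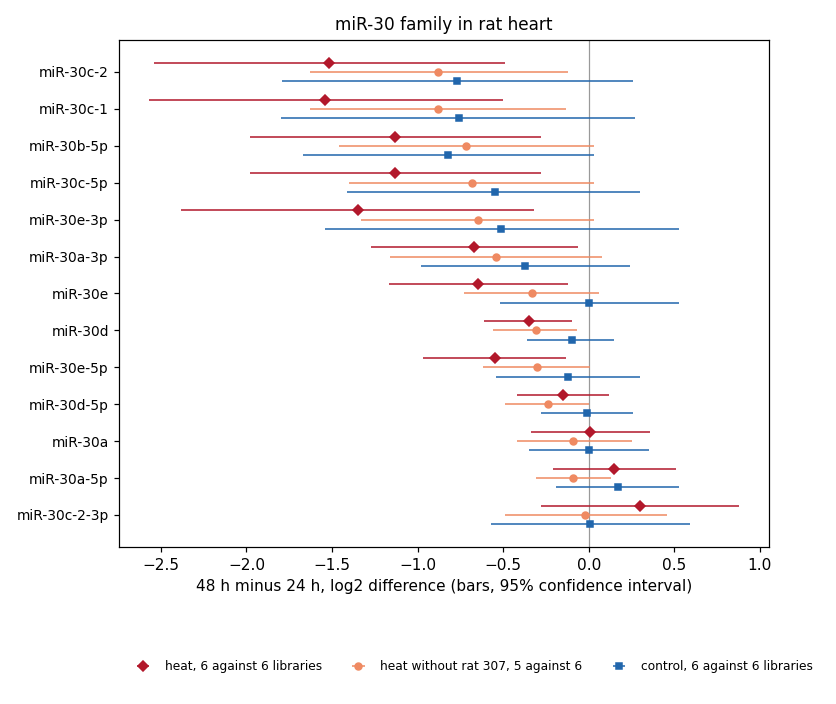
Differences between 48 h and 24 h (log2, horizontal axis, with 95% confidence intervals) of the 13 miR-30 names for heated hearts, heated hearts without rat 307 and control hearts. The points lie from -1.54 for miR-30c-1 to 0.30 for miR-30c-2-3p, both with all libraries.

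Other names had small p values in heated hearts without passing the test. miR-219a-2, with the nearly identical values of miR-219b, was at 8.42, 7.95, 8.61 and 7.63 in rats 306, 308, 309 and 305 and at 6.55 in rat 304 at 48 h, and at 9.71 in the library of rat 307, against 6.63 to 7.23 in heated hearts at 24 h. The mature miR-219b and miR-219a-2-3p lie on opposite strands of chromosome 3 and overlap by 20 bases, so that without the strand of the reads they cannot be told apart. The difference was 0.93 ± 0.40 (SE, 5 against 6) without rat 307 with an adjusted p of 0.999 from limma, and its 95% interval with all libraries was 0.39 to 2.10, with an adjusted p of 0.327. Control hearts were at 6.30 to 7.87 at 48 h and at 6.35 to 7.84 at 24 h, a difference of -0.46 ± 0.42.

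miR-9a-5p, a miRNA best known from the nervous system, was at 6.83 to 7.56 in heated hearts at 48 h without rat 307 and at 4.74 in the library of rat 307, against 7.04 to 8.49 in heated hearts at 24 h. Its difference was -0.76 ± 0.32 without rat 307 and -1.16 ± 0.38 with it, and 0.04 ± 0.38 in control hearts. miR-127-3p, from an imprinted cluster, had a difference of -1.02 ± 0.56 without rat 307, with heated hearts at 6.81 to 8.62 at 48 h and 6.57 to 9.84 at 24 h, so that the groups overlapped widely. miR-3596d, whose locus lies opposite a let-7f hairpin, was at 8.69 to 9.63 in heated hearts at 48 h without rat 307 and 9.46 to 9.80 at 24 h, with a difference of -0.53 ± 0.18. Adjusted p values of these 3 names without rat 307 were 0.999 each from limma.

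None of the miRNA listed for other cells and functions passed the test. miR-126a-3p of endothelium was at 11.81 to 12.73 in heated hearts at 48 h without rat 307 and at 11.87 to 12.34 at 24 h, and its difference of 0.32 ± 0.17 without rat 307 stands beside 0.71 ± 0.28 with it and 0.36 ± 0.28 in control hearts. Its value in the library of rat 307 was 14.79. The other arm, miR-126a-5p, differed by -0.24 ± 0.64 without rat 307 and by -0.65 ± 0.65 with it. In the library of rat 307 miR-126a-5p was at 10.66. Of the 4 endothelial names, 3 had negative differences without rat 307 and 1 with it. miR-29c-3p, which targets collagens, was at 8.64 to 9.73 in heated hearts at 48 h without rat 307 and at 9.61 to 10.04 at 24 h. Its differences were -0.43 ± 0.15 in heated hearts without rat 307 and -0.24 ± 0.15 in control hearts. miR-22-3p differed by -0.07 ± 0.18 without rat 307, with a positive sign under either scaling, and miR-378a-3p, encoded in a gene of energy metabolism, by 0.09 ± 0.21. miR-199a-3p of fibroblasts differed by -0.29 ± 0.34, with the highest value of its group, 12.18, in rat 306. By list, without rat 307, the median differences were -0.10 for 4 endothelial names, 0.22 for 4 smooth muscle names, -0.17 for 2 fibroblast and stroma names, -0.25 for 3 names of the miR-29 family and 0.03 for 4 metabolic names, with 0 calls in each. The epithelial list had 5 of 13 names tested and a median of -0.25 without rat 307 and 0.99 with it, the 2 ciliated cell names -0.35 and 0.70, and the 6 tested kidney names 0.01 and -0.03. None of the 3 liver names passed the filter on reads.

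The change between 24 h and 48 h was also compared between heated and control hearts, and no name passed this test. There were 0 of 163 names called higher and 0 lower (0% each way), with and without rat 307, and the smallest adjusted p from limma was 0.999 without rat 307 and 0.911 with it. At an unadjusted limma p below 0.05 there were 4 names higher (2.45%) and 0 lower (0%) in each case, namely miR-21, miR-142-3p, miR-219a-2 and miR-219b. Of these, miR-219a-2 and miR-219b had nearly identical values and may be the same reads counted under both names. Without rat 307 the heated minus control difference of the changes was 1.57 ± 0.64 for miR-21 (95% interval 0.26 to 2.87), 1.19 ± 0.49 for miR-142-3p (0.20 to 2.18), 1.40 ± 0.56 for miR-219a-2 (0.26 to 2.53) and 1.59 ± 0.87 for miR-451 (-0.18 to 3.36). These intervals rest on a spread pooled over all heart groups, so they can be too narrow where heated hearts at 48 h vary most, as for miR-21. limma's voom called 0 names, with 3 and 4 at an unadjusted p below 0.05 without and with rat 307. Leaving out rat 306 as well as rat 307 left 0 names at an unadjusted limma p below 0.05. Across the 163 names, the changes in heated hearts without rat 307 and in control hearts had a Pearson correlation of 0.34, as a description over names, which are not independent. At 48 h 96 names were lower and 22 higher in both. As 114 names were lower in heated hearts without rat 307 and 123 in control hearts, many would be lower in both without any link. These counts are from the deposited values, without the other scalings.

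**Figure D5:**
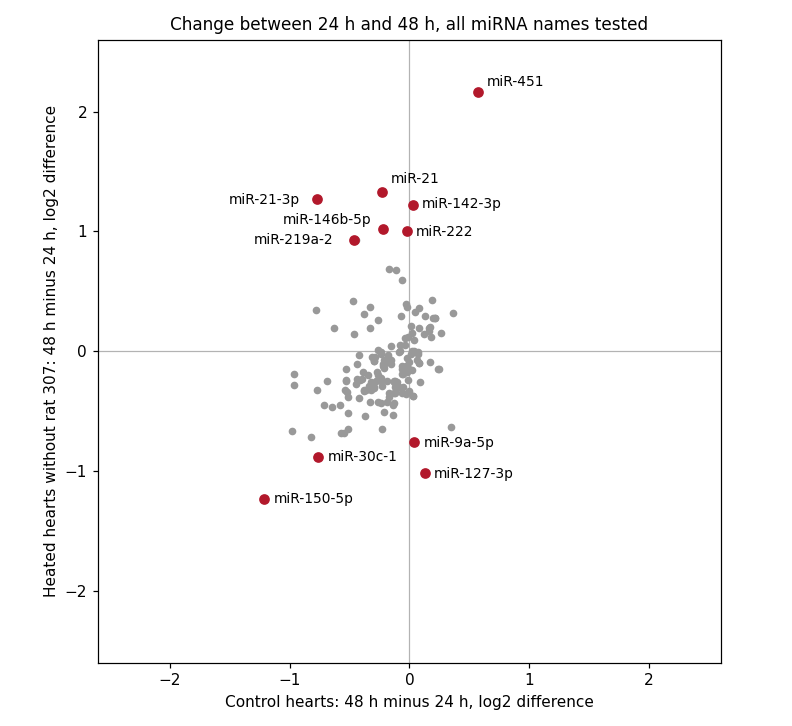
Difference between 48 h and 24 h (log2) of the 163 names in heated hearts without rat 307 (vertical axis) against control hearts (horizontal axis), with 11 of the named miRNA in red. miR-451 lies at 2.16 and 0.57, miR-21 at 1.33 and -0.23, and miR-150-5p at -1.23 and -1.21, on the vertical and horizontal axes.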

How the data were processed

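Small RNA libraries of rat tissue were sequenced by the authors, who trimmed adapters (cutadapt 2.6 in the submitters' processing notes), mapped reads without mismatch to the rat entries of miRBase and used edgeR. The strand setting of the counting is not given in the sources used here. The deposited values are log2(CPM + 1) for 185 names, 105 with an arm and 80 without, and there were 0 other value columns. Groups came from the sample labels.

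Since a library's lowest values step by 1 read, read numbers could be restored (1282 of 1283 low heart values within 0.05 of a whole read). A name was tested where every library of some heart condition held 5 reads or more, which kept 163 and set aside 22, and the same 163 were tested without rat 307. The study's own test needs raw counts, so limma 3.58.1 in R 4.3.3 was used on the log2 values of all 35 heart libraries, with a mean-dependent prior for the variance, the study's minimum fold change (treat) and adjustment at an FDR of 0.05. Each SE and 95% interval comes from that fit. Exact two-sided permutation tests compared the means of each name, where the smallest p is 0.00216. The p values measure the spread between rats, which limma pools for each name over all heart groups. Where groups differ in spread, the SE is too small for the wider groups and too large for the narrower ones. The SD of miR-21 was 2.00 in heated hearts at 48 h without rat 307 and 0.26 in control hearts at each time. Its unadjusted p in heated hearts without rat 307 was 0.0187 from limma and 0.173 from the exact permutation test. Within each of the 4 groups no library was a copy of another (60 pairs, chi-square per degree of freedom at least 19.0). Pairs across groups or tissues were not compared.

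The named miRNA were those past the test, else up to 6 with the smallest p in each direction with and without rat 307, and a fixed list, of which 3 names are not in the table. Names given beside these as list members were chosen after their values were seen. The members, lists and tests were chosen with earlier results of these data known. Alternatives were other scalings, filters, offsets, weights and left-out libraries, and leaving rat 307 out of the control comparison was added after seeing the data. Only the limma test of heated hearts at 48 h against 24 h was tried on simulated reads. These had the same spread setting for every name and no outlying library, unlike the data. Python 3.11.15, numpy 2.4.6, pandas 2.3.3, scipy 1.17.1 and matplotlib 3.10.9 were used.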

Additional observations from a re-analysis of the deposited data

Results flagged for a closer look

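Single libraries that stood far from the other 5 of their group were looked for in 27 named miRNA and 4 groups, that is in 108 sets of 6 values. There were 17 such values, 11 of them in the library of rat 307, and about 1 in 20 sets would give one by chance. In heated hearts at 48 h, the library of rat 307 stood apart with 7.12 for miR-150-5p, 8.32 for miR-30c-1, 8.41 for miR-30c-2, 4.74 for miR-9a-5p, 5.39 for miR-30e-3p, 7.28 for miR-30c-5p, 2.62 for miR-1-3p, 5.84 for miR-133a-3p, 3.49 for miR-208a, 3.49 for miR-499-5p and 14.79 for miR-126a-3p. The other 6 were spread over 4 rats. In heated hearts at 24 h, rat 300 had 12.89 for miR-133a-3p. In control hearts at 48 h, rat 318 had 7.87 for miR-219a-2 and 7.89 for miR-219b, and rat 317 had 10.22 for miR-208a. In control hearts at 24 h, rat 321 had 8.24 for miR-9a-5p and 9.21 for miR-127-3p.

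Among the 22 names with too few reads to be tested, a few were above the highest of the 12 control hearts by more than 1 on the log2 scale. The library of rat 307 had 6.29 for miR-205 (highest control 3.74), 10.67 for miR-200b-3p (6.04), 9.84 for miR-200a-3p (4.63), 9.75 for miR-92b-3p (4.04), 6.70 for miR-3553 (3.97), 9.16 for miR-200a (3.74) and 9.16 for miR-3548 (3.74). Rat 306, heated and taken at 48 h, had 7.65 for miR-31a and 7.66 for miR-31b (highest control 5.72 for both), and rat 300, heated and taken at 24 h, had 6.73 for miR-31b. Rat 298, heated and taken at 24 h, had 7.14 for miR-203b-5p (highest control 4.52). No difference between heated and control hearts in the change from 24 h to 48 h passed its test.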

How the results depend on the processing

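The count of 0 calls held for control hearts and for the heated minus control changes under each alternative run, and for heated hearts under all but 3. A fit of the heated groups alone without rat 307 called 1 name, miR-150-5p. Leaving out libraries in turn gave 0 to 2 calls with all libraries: 2 without rat 304 (miR-142-3p and miR-21, both with an adjusted p of 0.0222 from limma) and 1 without rat 305 (miR-142-3p, adjusted p of 0.0403). Without rat 307 leaving out a further library gave 0 calls throughout. For the named miRNA, 1092 values under alternatives kept their direction and side of the threshold, 4 passed the threshold and 11 changed sign. With array weights the difference was 0.017 for miR-133a-3p, 0.25 for miR-208a and 0.0605 for miR-22-3p without rat 307, and 0.21 for miR-208a, 0.0507 for miR-22-3p and 0.22 for miR-378a-3p with all libraries. miR-22-3p without rat 307 was at 0.0608 under median-ratio and 0.027 under trimmed-mean scaling. Leaving out a library in turn moved miR-208a without rat 307 between -0.29 and 0.16, miR-22-3p without rat 307 between -0.16 and 0.11 and miR-378a-3p with all libraries between -0.49 and 0.089. The cause was not tested. No paired analysis was possible because each rat gave 1 heart at 1 time, so that the groups share no rat number. The median SE of a difference was 0.33 with all libraries and 0.27 without rat 307, and the depth of rats 308 and 307 limits names near 3 reads.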
